A study of Mus musculus with 22 samples.

Results

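Extracellular proteases of the ADAMTS family and the matrix metalloproteases, with the ADAMTS-like proteins and the inhibitors of these enzymes, were followed in the epithelium of the fetal mouse urogenital sinus. In males the urogenital sinus (UGS) gives rise to the prostate, through epithelial buds. Members were the genes whose only symbol in the platform annotation was Adamts or Adamtsl with a number, Mmp with a number, Timp with a number, or Reck. This rule found 50 of 30102 genes with a singly named probe set, namely 18 ADAMTS proteases, 5 ADAMTS-like proteins, 22 matrix metalloproteases and 5 inhibitors. Adamts2 and Mmp15 were not found by the rule and were not analysed here.

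The 22 arrays fell into 4 groups, all from C57BL/6J fetuses at embryonic day E16.75. There were 6 arrays of male knockouts, 6 of male controls, 5 of female knockouts and 5 of female controls. Knockouts had the genotype ShhCre/+; Sox9fl/fl, in which Cre recombinase sits at 1 of the Shh alleles and both Sox9 alleles are floxed. Controls were littermates with the genotype Shh+/+; Sox9+/fl, so that they lacked Cre but still carried a floxed Sox9 allele. Cre made from the Shh locus acts in cells that express Shh or descend from such cells. Loss of Sox9, the Cre allele and the changed Shh locus go together in every knockout and cannot be told apart. The labels call the replicates biological and do not tell whether 1 fetus or several went into an array. The p-values therefore describe variation among these arrays.

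ADAMTS proteases and matrix metalloproteases are zinc enzymes that cut proteins of the extracellular matrix and of the cell surface. Most are made as inactive proenzymes that are activated by removal of a propeptide, often by furin or related proprotein convertases, and are held in check by the TIMP proteins and by the membrane-anchored protein Reck. In organs that grow by epithelial budding, including the prostate, such enzymes remodel the basement membrane and the hyaluronan-rich matrix around the buds.

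All values below are log2 array values as deposited, and differences are on the same log2 scale. Calls come from limma, in a model of the 4 group means, and require an adjusted p (Benjamini-Hochberg, over 19050 genes) under 0.05. The deposited values ran from 1.59 to 14.23, with array medians between 5.10 and 5.27. The number of arrays limited the precision, with a median standard error (SE) over the tested members of 0.08 for the male and 0.09 for the female comparison of genotypes. Sox9 was lower by 1.07 in male knockouts and by 1.00 in female knockouts than in controls of the same sex, and Shh was lower by 0.45 in male and by 0.56 in female knockouts. These differences are called at an adjusted p of at most 0.0128 in limma. The tissue label was set against its markers, and the mean of 8 epithelial markers, among them Epcam, Cdh1, Krt5 and Trp63, lay between 11.56 and 11.73 on every array. The mean of 10 measured mesenchyme markers, the other side of the dissection, ran from 6.51 to 6.95 in male knockouts, 6.52 to 7.61 in male controls, 6.66 to 6.80 in female knockouts and 6.61 to 6.85 in female controls. The upper end came from a single array, male control 6, which held 7.61 against 6.52 to 6.79 in the other male controls. Of the mesenchyme markers not counted, Prrx1 was above the array median on 1 array and Tcf21 on 2. Male control 6 also stood out for 8 smooth muscle markers, with a mean of 7.10 against 5.88 to 6.06. For 3 measured endothelial markers it had a mean of 6.33, against 5.40 to 5.72 in the other male controls. For Adamts9, Mmp2 and Adamts15 the difference between male genotypes is given with and without this array. In bulk tissue, fewer cells of a type and less RNA per cell cannot be told apart.

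Of the 50 members, 37 passed the filter on dim probe sets (above the median of their array on at least 5 arrays): 16 ADAMTS proteases, 4 ADAMTS-like proteins, 12 matrix metalloproteases and the 5 inhibitors. The 13 that did not pass were Adamts3, Adamts20, Adamtsl3, Mmp1a, Mmp1b, Mmp3, Mmp8, Mmp10, Mmp12, Mmp13, Mmp19, Mmp21 and Mmp27. Mmp21 was above the array median on 2 arrays and the other 12 of them on none. Probe sets of different genes were not ranked against each other, because a probe set's brightness also depends on its sequence.

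By role, the members covered the following ranges of mean level over the 22 arrays. The proteases of versican and aggrecan, the large chondroitin sulfate proteoglycans that bind hyaluronan, reached from 5.03 for Adamts20 to 7.74 for Adamts1. The procollagen N-proteinases, which trim fibrillar procollagens, lay at 4.32 for Adamts3 and 6.34 for Adamts14. The remaining ADAMTS proteases reached from 5.12 for Adamts19 to 9.08 for Adamts17, and the ADAMTS-like proteins, which lack the protease domain, from 4.76 for Adamtsl3 to 7.24 for Adamtsl1. Among the matrix metalloproteases, the collagenases and gelatinases reached from 2.97 for Mmp1b to 7.48 for Mmp2. The stromelysins, matrilysin and elastase reached from 3.33 for Mmp12 to 8.87 for Mmp11. The membrane-anchored enzymes ran from 5.28 for Mmp24 to 9.43 for Mmp14, the activator of pro-Mmp2, and the others from 3.68 for Mmp27 to 6.44 for Mmp28. The inhibitors ran from 5.44 for Timp4 to 8.70 for Timp2.

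A set of 10 members forms a run on chromosome 9 with no other protein-coding gene between them in the GRCm38.p6 gene order. Neighbours here and below are counted among protein-coding genes alone. The run is, in order, Mmp13, Mmp12, Mmp1b, Mmp3, Mmp1a, Mmp10, Mmp8, Mmp27, Mmp20 and Mmp7. Only the last of this order, Mmp20 and Mmp7, passed the filter. Mmp7 had a mean of 8.23 over the 22 arrays and Mmp20 one of 5.65, while the other 8 had means between 2.97 and 4.46. For comparison, 23 background probe sets of the array had a median of 3.19, but their means ran from 2.12 to 6.69, and 8 of them lay above the highest array median. Of the 37 tested members, 20 had a mean below the brightest of these probe sets, so passing the filter does not place a member clear of background.

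The genotype comparison asked whether the protease genes differed in epithelium of knockouts of Sox9, a transcription factor of early prostatic buds. Sox9 signal was reduced but not absent, with means of 8.26 in male and 7.89 in female knockouts, against 9.33 and 8.89 in controls. Among males, Adamts9 fell in the knockout. Adamts9, a secreted versican and aggrecan protease, had a lowest value of 6.41, a median of 6.51 and a highest of 6.62 in the 6 male knockouts, against 6.95, 7.23 and 7.80 in the 6 male controls. Every male knockout lay below every male control, and the knockout values spread less, with a mean of 6.50 ± 0.08 in male knockouts and 7.31 ± 0.29 in male controls (SD, n = 6 each). The difference was -0.80 (SE 0.14), a 1.74-fold lower level, with an adjusted p of 0.00705 in limma. Adamts9 was the only one of the 37 tested members called in this comparison, in which 38 of 19050 genes (0.199%) were called. Without male control 6, which had the highest Adamts9 value of its group, the difference was -0.70 and the adjusted p 0.023 in limma.

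The other members of smallest p in males did not pass the threshold. Mmp2, gelatinase A, which many mesenchymal cells make, had a lowest value of 6.80, a median of 7.06 and a highest of 7.17 in male knockouts, against 7.23, 7.28 and 8.51 in male controls. The groups did not overlap for Adamts9 and Mmp2, 2 of the 37 members, and 0.236% of all genes were lower in male knockouts without overlap. The difference was -0.49 (SE 0.17, unadjusted p = 0.00901, adjusted p = 0.553 in limma), and it was -0.29 without male control 6, which held the value of 8.51. Adamts18, for which a role in epithelial branching has been described in mouse, ran from 7.01 to 8.11 with a median of 7.56 in male knockouts, against 7.77 to 8.50 with a median of 7.91 in male controls. Its groups overlapped, with a difference of -0.44 (SE 0.15, unadjusted p = 0.00581, adjusted p = 0.488 in limma). Adamts15, another versican protease, ran from 5.80 to 6.62 in male knockouts and from 6.26 to 7.15 in male controls, a difference of -0.38 (adjusted p = 0.668 in limma), and of -0.27 without male control 6.

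At an unadjusted p under 0.05, 7 of the 37 members were lower in male knockouts and none was higher, where 2.89% of all genes were lower and 3.38% higher. They were Adamts9, Adamts18, Mmp2, Adamts15, Mmp11, Mmp23 and Adamts1. This count is given with male control 6 only, the highest male control for Adamts9, Mmp2 and Adamts15. The median difference over the tested members was 0.01, as it was over all genes (0.01). Over the 36 members that were not called, differences ran from -0.49 (Mmp2) to 0.20 (Adamtsl1). The array plots of Adamts9, Mmp2, Adamts18 and Mmp7 show these groups side by side.

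**Figure D1:**
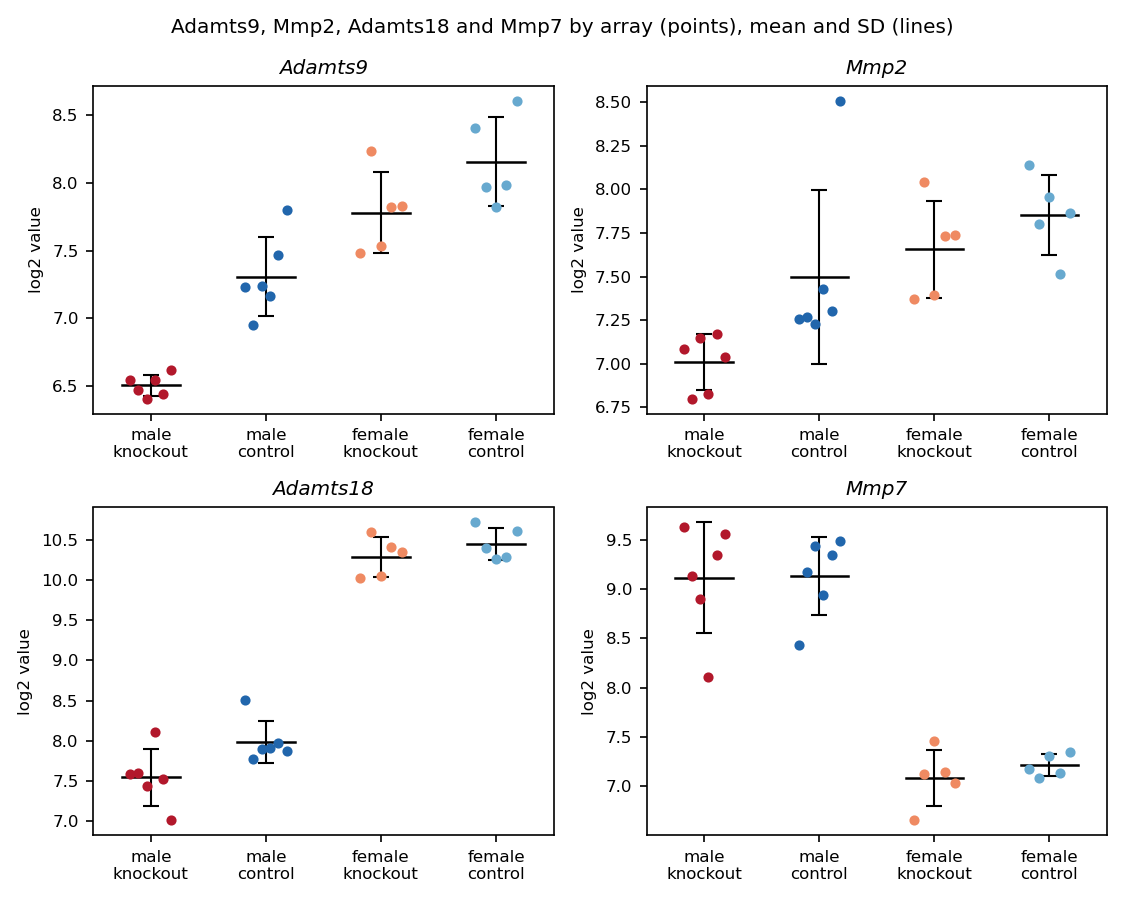
Log2 value (vertical axis) of Adamts9, Mmp2, Adamts18 and Mmp7 on each array (points), with the mean and SD of each group (lines), in male knockouts and male controls (n = 6 each) and female knockouts and female controls (n = 5 each). Adamts9 lay between 6.41 and 6.62 in male knockouts and between 6.95 and 7.80 in male controls, and Adamts18 lay at 8.50 or below in all males and at 10.02 or above in all females.

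In females no member was called between knockouts and controls in limma, where 6 of 19050 genes (0.0315%) were called. At an unadjusted p under 0.05 there were 2 members, Adamts9 and Adamts19, both lower, where 2.4% of all genes were lower. Adamts19 passed the filter through 5 female controls and 2 female knockouts, so the filter itself favours its lower value in knockouts. Adamts9 had values of 7.48, 8.23, 7.53, 7.82 and 7.83 in female knockouts, against 8.40, 7.97, 7.82, 7.99 and 8.60 in female controls. The groups overlapped, with a mean of 7.78 ± 0.30 in female knockouts and 8.16 ± 0.33 in female controls (SD, n = 5 each), and the difference was -0.38 (SE 0.15, unadjusted p = 0.0219, adjusted p = 0.871 in limma). Adamts19, linked to heart valve development, had 5.17, 5.42, 5.05, 5.08 and 5.23 in female knockouts, against 5.42, 5.39, 5.32, 5.26 and 5.35 in female controls, values close to the array medians. Its difference was -0.16 (adjusted p = 0.871 in limma).

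The next members by p had positive differences that did not reach an unadjusted p of 0.05 either. Adamts6, a relative of Adamts10 linked to fibrillin microfibrils, differed by 0.20 (95% interval -0.03 to 0.43) between female knockouts and female controls. Timp3, the inhibitor that binds to the matrix and acts on several ADAMTS proteases, differed by 0.10 (95% interval -0.04 to 0.24). The median over the 37 members was 0.01 and over all genes 0.01. Beside these values, 4 of 6 urothelium markers were higher at an unadjusted p under 0.05 between female knockouts and female controls, as were 3.07% of all genes, with a median difference of 0.31 and no call. Of 8 macrophage and leukocyte markers, 7 had a positive difference and 1 an unadjusted p under 0.05, with a median of 0.17 and no call. The part of both lists in the member values was not tested.

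Averaged over the sexes, Adamts9 was 1.50-fold lower in knockouts than in controls, with a difference of -0.59 (SE 0.10, adjusted p = 0.00671 in limma). It was again the only member called, where 47 of 19050 genes (0.247%) were called. Adamts18 (-0.31), Mmp2 (-0.34) and Adamts15 (-0.27) followed, with adjusted p of 0.439, 0.466 and 0.57 in limma. The averaged comparison uses the same arrays as the male and the female one.

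Whether the effect of the knockout differed between the sexes was tested as a difference of differences, male minus female. No member was called in limma, where 1 of 19050 genes (0.00525%) was called, and 3 members had an unadjusted p under 0.05 against 4.04% of all genes. For Adamts9 the difference was -0.43 (SE 0.21, 95% interval -0.86 to 0.00), with an unadjusted p of 0.0511 and an adjusted p of 0.997 in limma, so that the larger male value was not shown to differ from the female one. The 3 members were Adamts5 (-0.34), Adamts19 (0.19) and Mmp23 (-0.25), each with an adjusted p of 0.997. Adamts19 passed the filter through female arrays alone, more of them controls than knockouts, so the filter favours its positive value here. Mmp23, a membrane-bound metalloprotease, had a mean of 6.37 in male knockouts and 6.55 in male controls, and of 6.63 in female knockouts and 6.56 in female controls. Mmp11 followed with -0.20.

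**Figure D2:**
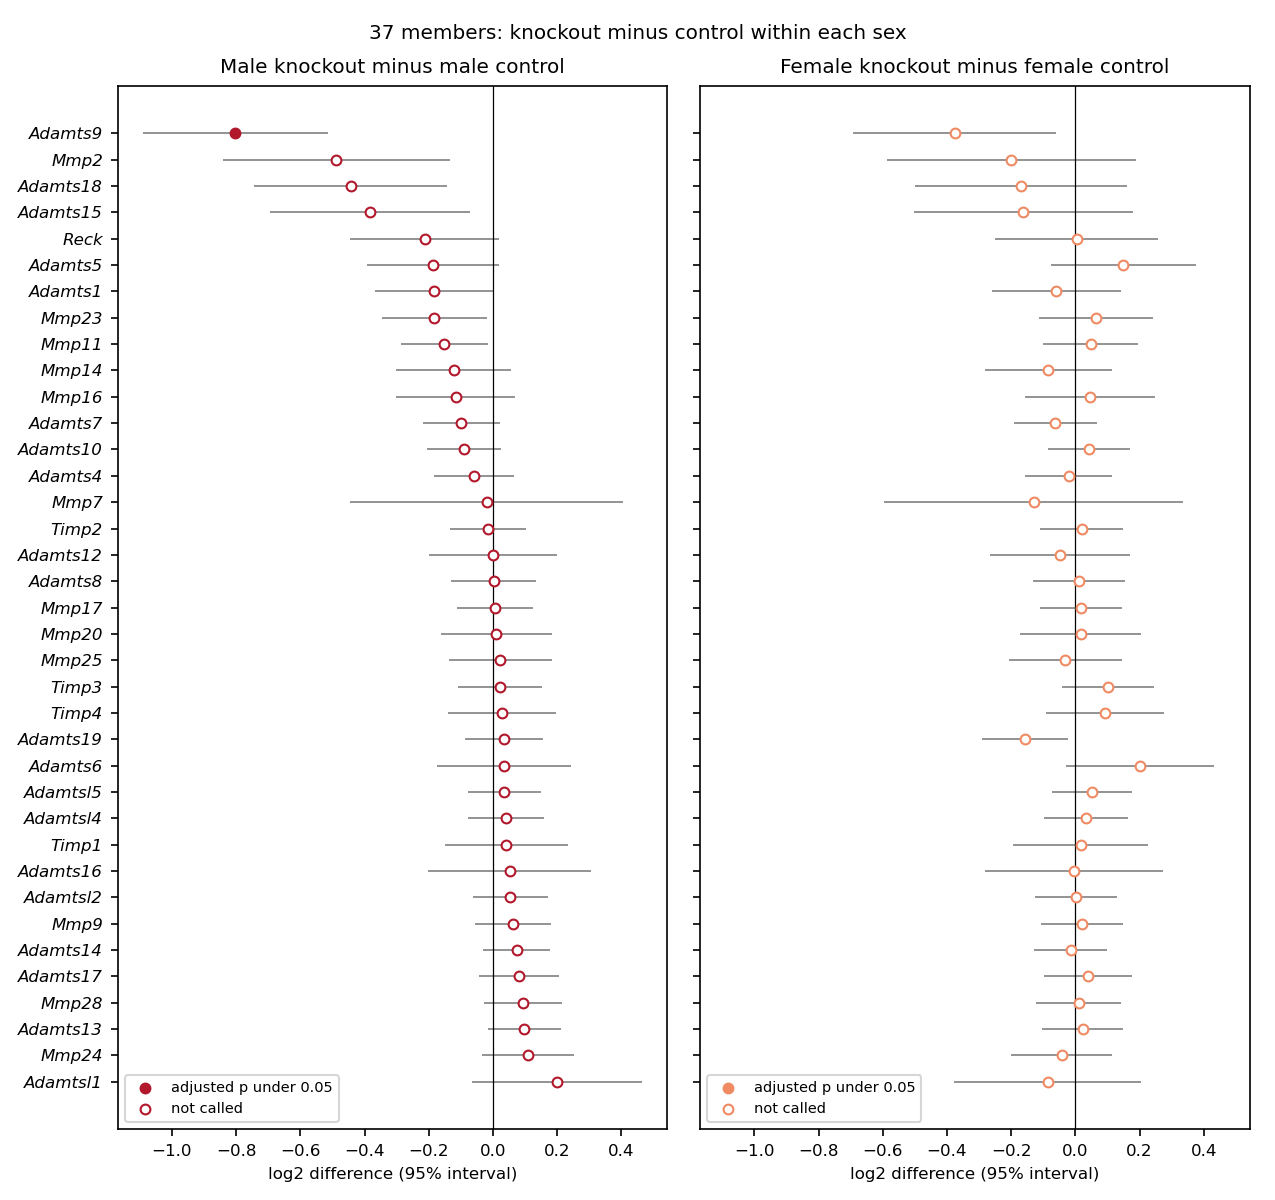
Difference in log2 value between knockout and control (horizontal axis) for the 37 tested members, in males (left) and females (right), with 95% intervals (lines) from limma; filled points are called at an adjusted p under 0.05. Adamts9 in males, at -0.80, is the only filled point.

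The sexes differed in many more members, in knockouts as well as in controls. Between male and female knockouts 12 of the 37 tested members (32.4%) were called, 2 higher and 10 lower in males, where 7.19% of all genes were called (3.66% higher and 3.52% lower). Between male and female controls 12 of the 37 (32.4%) were also called, 3 higher and 9 lower in males, where 6.94% of all genes were called (3.27% higher and 3.67% lower). One of these 9, Adamts19, passed the filter through female arrays alone, which fixes its direction. Without it and the other genes that passed through arrays of a single sex, 12 of 36 members were called between knockout sexes (7.07% of all genes) and 11 of 36 between control sexes (6.82%). Between knockout sexes the groups did not overlap for 1 member higher and 9 lower in males, as for 2.79% and 3.03% of all genes. Between control sexes they did not overlap for 3 members higher and 8 lower, as for 2.82% and 2.82% of all genes, and for 3 and 7 without Adamts19, as for 2.78% and 2.76%. The members called include none of those left out as dim. Without the filter, over all 50 members, 11 were called between knockout sexes (4.07% of all genes) and 9 between control sexes (3.87% of all genes).

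These comparisons share no array, although they share the estimate of the spread. Of the 12 called in each, 9 were called in both, which is 75% of each list, and all 9 in the same direction. The same overlap over all genes was not counted, so the 75% is not set apart from other genes. They were Adamts1, Adamts5, Adamts6, Adamts7, Adamts9, Adamts16, Adamts18, Mmp20 and Mmp7. Mmp11, Mmp2 and Adamtsl1 were called between knockouts only, and Mmp16, Timp4 and Adamts19 between controls only. The difference of differences above was called for none of these 6.

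The ADAMTS proteases carried most of the calls. Of the 16 tested, 7 were lower in male than in female knockouts and 8 lower in male than in female controls, and none was higher in males. Over all genes 3.52% were lower between knockouts and 3.67% between controls. The 8 members lower between controls include Adamts19, and without it 7 of 15 were lower in each comparison. Without the genes that passed through a single sex, 3.46% and 3.6% of all genes were lower. The median difference of these 15 was -0.16 between knockouts and -0.14 between controls, against -0.01 over all genes in both. Over all 16 the difference was negative for 14 between knockouts and for 15 between controls. Of all 19050 genes, 10662 had a negative difference between knockouts and 10522 between controls. After centring each array on its median the counts of the 16 proteases were 13 and 13, and after quantile normalization 13 and 14.

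Adamts18 differed most. It had a lowest value of 7.01, a median of 7.56 and a highest of 8.11 in male knockouts, against 10.02, 10.60, 10.05, 10.41 and 10.35 in female knockouts. In male controls it had 7.77, 7.91 and 8.50, against 10.72, 10.40, 10.27, 10.29 and 10.61 in female controls. The highest male array lay well below the lowest female one. The difference was -2.74 (SE 0.15, 6.69-fold lower in males) between knockouts and -2.47 (SE 0.15, 5.53-fold lower) between controls, both called in limma.

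Mmp7, matrilysin, a small metalloprotease without a hemopexin domain that glandular epithelia make, went the other way. It had a lowest value of 8.11, a median of 9.24 and a highest of 9.64 in male knockouts, against 6.65, 7.12, 7.46, 7.14 and 7.03 in female knockouts. In male controls it had 8.43, 9.26 and 9.49, against 7.18, 7.09, 7.31, 7.13 and 7.35 in female controls. Every male array lay above every female array. The difference was 2.04 (SE 0.21, 4.10-fold higher in males) between knockouts and 1.93 (SE 0.21, 3.80-fold higher) between controls, both called in limma. By genotype Mmp7 differed by -0.02 in males (95% interval -0.44 to 0.40) and by -0.13 in females (95% interval -0.59 to 0.34).

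The promoter sequences of Adamts9, the member called between genotypes, and of Adamts18 and Mmp7, the members that differed most between the sexes, are shown as annotated by RefSeq on GRCm38.p6, from 250 bases before to 50 bases after the start site. They read 5′ to 3′ on the strand of the gene. Capitals mark letters of any motif searched on both strands: the SOX cores AACAAT and ACAATG, the androgen and glucocorticoid receptor half-site AGAACA, the AP-1 site TGANTCA, the TCF/LEF site CTTTGA, the ETS site CAGGAAGT and the TATA box TATAAA.
Adamts9, chr6:92943485-92943784, minus strand: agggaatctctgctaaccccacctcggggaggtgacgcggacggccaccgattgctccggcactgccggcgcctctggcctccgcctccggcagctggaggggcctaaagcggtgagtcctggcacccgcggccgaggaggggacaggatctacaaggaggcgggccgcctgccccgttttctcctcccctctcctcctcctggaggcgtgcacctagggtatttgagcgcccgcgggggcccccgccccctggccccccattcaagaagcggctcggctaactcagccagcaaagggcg
Adamts18, chr8:113848790-113849089, minus strand: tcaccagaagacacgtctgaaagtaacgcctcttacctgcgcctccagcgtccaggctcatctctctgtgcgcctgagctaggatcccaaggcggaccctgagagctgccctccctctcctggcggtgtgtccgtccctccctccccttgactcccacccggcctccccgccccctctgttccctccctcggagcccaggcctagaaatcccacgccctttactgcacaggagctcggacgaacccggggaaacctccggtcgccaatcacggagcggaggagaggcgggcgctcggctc
Mmp7, chr9:7691840-7692139, plus strand: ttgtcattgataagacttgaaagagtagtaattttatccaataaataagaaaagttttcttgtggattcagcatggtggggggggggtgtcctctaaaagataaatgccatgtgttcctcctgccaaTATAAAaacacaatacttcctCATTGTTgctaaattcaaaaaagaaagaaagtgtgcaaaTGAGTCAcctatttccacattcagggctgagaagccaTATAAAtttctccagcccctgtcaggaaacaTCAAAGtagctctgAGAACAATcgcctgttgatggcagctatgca

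None of these motifs was found in the windows of Adamts9 and Adamts18, which were 70.0% and 66.0% G and C, against a median of 52.7% over all promoters. The window of Mmp7 was 39.0% G and C and held 8 matches. Counting from the start site, TATA boxes began at -123 and -26 and an AP-1 site at -63. The SOX cores at -102 and -101 overlap each other in the run CATTGTT. A TCF/LEF site began at 6, and the half-site at 20 overlaps a SOX core at 22. Mmp7 has a second annotated start site close by.

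Promoters were annotated for 35 of the 50 members, 38 windows in all, and the shares of the 38 stood beside those of 32851 promoters of the same length as follows. AACAAT was held by 10.5% of member windows and 10.7% of all windows, and ACAATG by 15.8% and 12.6%. The half-site was held by 18.4% and 19.0%, the TCF/LEF site by 18.4% and 16.0%, and the ETS site by 5.26% and 3.33%. The AP-1 site was held by 21.1% of member windows, against 7.81% of all windows, and the TATA box by 31.6%, against 13.6%. The 8 member windows with an AP-1 site all belonged to genes of the run on chromosome 9, which share their origin by duplication. Of these 8 genes, 6 were among the dim members. A match describes these letters in the window and says nothing of binding.

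Among the proteases of versican and aggrecan, Adamts9, Adamts5 and Adamts1 were lower in males. For Adamts9, with the array values given above, the difference was -1.28 (2.42-fold lower in males) between knockouts and -0.85 (1.80-fold lower) between controls. Adamts5, a main aggrecanase, had a lowest value of 5.55, a median of 5.72 and a highest of 6.13 in male knockouts, against 6.99, 6.71, 6.55, 6.91 and 6.76 in female knockouts. In male controls it had 5.78, 5.89 and 6.24, against 6.63, 6.57, 6.83, 6.75 and 6.37 in female controls. No male array reached the lowest female one. The difference was -1.02 (2.03-fold lower) between knockouts and -0.68 (1.61-fold lower, adjusted p = 0.00011 in limma) between controls.

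Adamts1, a versican protease that lies next to Adamts5 on chromosome 16, had a lowest value of 7.23, a median of 7.42 and a highest of 7.70 in male knockouts, against 7.89, 8.25, 7.81, 7.76 and 8.20 in female knockouts. In male controls it had 7.42, 7.61 and 7.77, against 8.16, 7.92, 8.10, 7.97 and 8.07 in female controls. The sexes did not overlap within either genotype. The difference was -0.56 between knockouts (adjusted p = 0.00031 in limma) and -0.43 between controls (adjusted p = 0.00446). Adamts15, on chromosome 9 next to Adamts8, had positive differences of 0.25 between knockouts and 0.47 between controls that were not called (adjusted p = 0.482 and 0.0787 in limma).

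Among the remaining ADAMTS proteases, all 9 had a negative difference in both genotypes as deposited. Adamts16, which is expressed in the developing mouse kidney and gonad, had a lowest value of 5.81, a median of 6.08 and a highest of 6.40 in male knockouts, against 6.76, 6.69, 6.91, 7.08 and 6.66 in female knockouts. In male controls it had 5.83, 5.94 and 6.38, against 7.06, 6.73, 7.11, 6.71 and 6.50 in female controls. The difference was -0.71 (1.64-fold lower in males) and -0.77 (1.71-fold lower), with adjusted p of 0.00063 and 0.00029 in limma.

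Adamts6 had a lowest value of 6.45, a median of 6.93 and a highest of 7.19 in male knockouts, against 7.63, 7.58, 7.58, 7.82 and 7.76 in female knockouts. In male controls it had 6.63, 6.88 and 7.13, against 7.54, 7.57, 7.24, 7.39 and 7.61 in female controls. The sexes were apart in both genotypes, by -0.77 (1.71-fold lower in males) and -0.60 (1.52-fold lower). Adamts7, which cleaves cartilage oligomeric matrix protein, had means of 6.96 in male and 7.24 in female knockouts, and of 7.06 in male and 7.31 in female controls. Its differences were smaller, -0.28 and -0.25, with adjusted p of 0.00344 and 0.0117 in limma, and the control difference was not called after median centring (adjusted p = 0.0843).

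Adamts19 passed the filter through 7 arrays, all of them female: 2 female knockouts and the 5 female controls. Its difference was -0.18 between knockouts (adjusted p = 0.0867 in limma, not called) and -0.37 between controls (adjusted p = 0.0003). A gene that passes only where it is high is bound to differ in this direction.

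**Figure D3:**
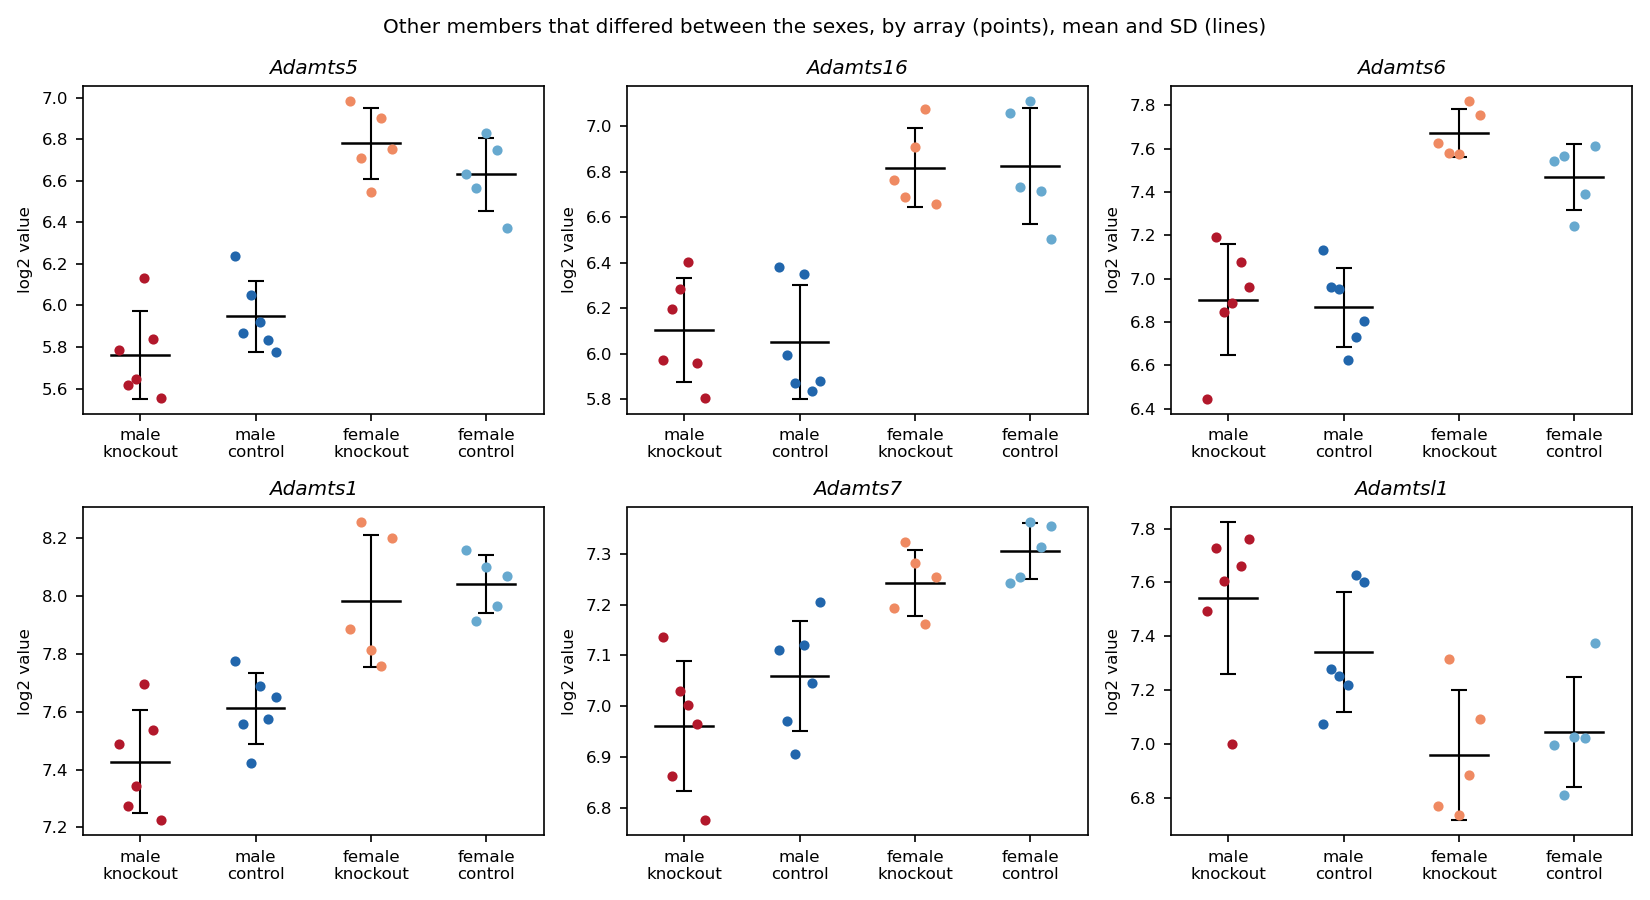
Log2 value (vertical axes, each gene on its own scale) of Adamts5, Adamts16, Adamts6, Adamts1, Adamts7 and Adamtsl1 on each array (points), with the mean and SD of each group (lines), for male knockouts and male controls (n = 6 each) and female knockouts and female controls (n = 5 each). For Adamts5, the male arrays lie between 5.55 and 6.24 and the female arrays between 6.37 and 6.99, while for Adamtsl1 the sexes overlap.

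Of the ADAMTS-like proteins, Adamtsl1, also known as punctin, was higher in male than in female knockouts. It had a lowest value of 7.00, a median of 7.63 and a highest of 7.76 in male knockouts, against 6.77, 7.31, 6.74, 6.88 and 7.09 in female knockouts. The groups overlapped through male knockout 4, at 7.00, and the difference was 0.58 (SE 0.13, adjusted p = 0.00665 in limma). Between controls it was 0.30 (adjusted p = 0.223), with means of 7.34 in males and 7.04 in females.

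Among the matrix metalloproteases other than Mmp7, the differences between the sexes were smaller and several lay near the threshold. Mmp2 had the male knockout values given above, against 7.37, 8.04, 7.40, 7.73 and 7.74 in female knockouts, a difference of -0.65 (1.56-fold lower in males, adjusted p = 0.0267 in limma) with no overlap. Between controls, where female values were 8.14, 7.80, 7.95, 7.51 and 7.87, the difference was -0.36 (adjusted p = 0.283 in limma). Male control 6 held 8.51, against 7.23 to 7.43 in the other male controls. The control difference without this array is not given here. Leaving out male knockout 2 or 4 or female knockout 2, 4 or 5 ended the call between knockouts, with an adjusted p of at most 0.1005 in limma.

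Mmp11, stromelysin-3, had a lowest value of 8.57, a median of 8.61 and a highest of 8.95 in male knockouts, against 9.08, 9.08, 9.12, 8.997 and 8.98 in female knockouts. The groups did not overlap, with a difference of -0.38 (adjusted p = 0.00064 in limma). Between controls, with means of 8.82 in males and 9.003 in females, it was -0.18 (adjusted p = 0.13).

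Mmp20, enamelysin, known from tooth enamel, had means of 5.52 in male and 5.82 in female knockouts, and of 5.51 in male and 5.80 in female controls. Both differences were -0.29, with adjusted p of 0.042 and 0.0487 in limma, and the groups overlapped. The call was lost under 13 of 20 alternatives between knockouts and 14 of 20 between controls. Mmp16, a membrane-anchored metalloprotease, differed by 0.15 between knockouts (adjusted p = 0.469) and by 0.31 between controls (adjusted p = 0.0432), with means of 5.65 in male and 5.34 in female controls. Its control call was lost under 10 of 20 alternatives, including without male control 6.

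Of the inhibitors, Timp4 alone was called. It was higher in male than in female controls, with a lowest value of 5.32, a median of 5.54 and a highest of 5.73 in male controls, against 5.19, 5.29, 5.20, 5.30 and 5.31 in female controls. The difference was 0.28 (adjusted p = 0.0445 in limma) and its call was lost under 12 of 20 alternatives. Between knockouts it was 0.22 (adjusted p = 0.152). Timp1 differed by -0.23 between knockouts and -0.25 between controls, without a call. Timp3 differed by 0.08 and 0.16 without a call, although its control sexes did not overlap. For Timp2 the intervals were -0.13 to 0.12 between knockouts and -0.09 to 0.16 between controls. Reck had a mean of 6.69 in male and 6.92 in female knockouts, a difference of -0.23 (95% interval -0.47 to 0.02), and of 6.90 in male and 6.91 in female controls. Male control 6 held 7.49 for Reck, against 6.61 to 6.93 in the other male controls.

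**Figure D4:**
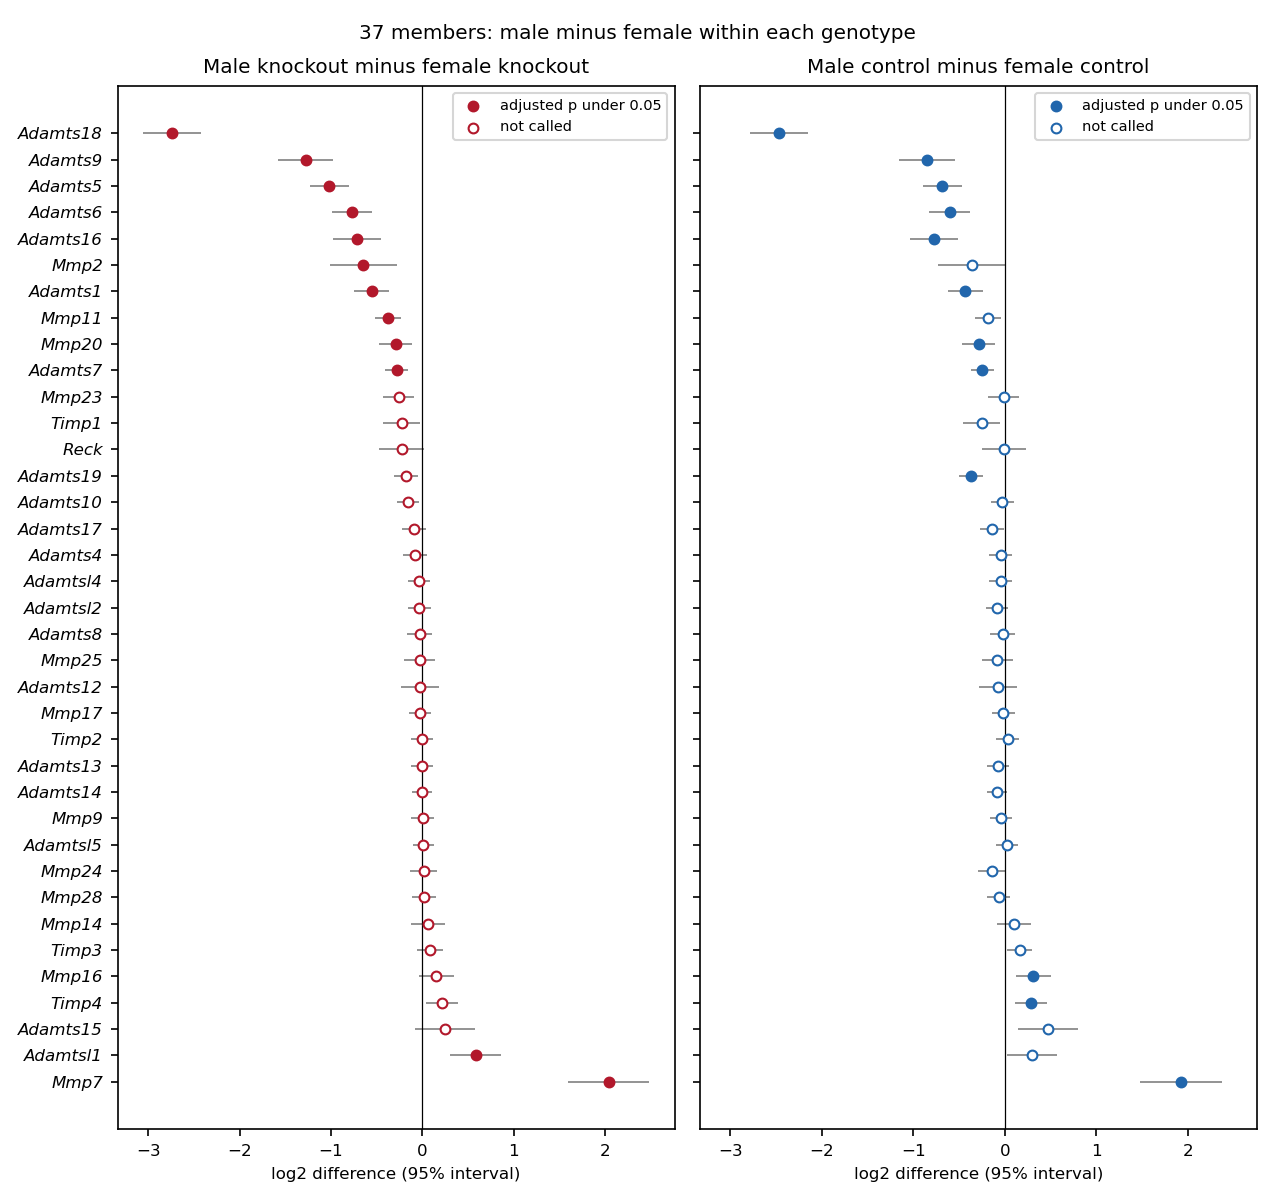
Difference in log2 value between males and females (horizontal axis) for the 37 tested members, in knockouts (left) and controls (right), with 95% intervals (lines) from limma; filled points are called at an adjusted p under 0.05. In both panels Adamts18 lies at the far left (-2.74 and -2.47) and Mmp7 at the far right (2.04 and 1.93).

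The differences between the sexes stood beside markers of other cells as follows. The mean of the mesenchyme markers overlapped between the sexes in both genotypes, with the ranges given above. Of the 10 measured mesenchyme markers, 1 was higher in male than in female knockouts (Lum) and 1 lower in male than in female controls (Dcn). Of 8 smooth muscle and 3 measured endothelial markers none was called in either comparison. Neutrophil markers are relevant because neutrophils carry Mmp8 and Mmp9. Of 8 listed, only 3 passed the filter, and the mean of these 3 lay between 5.37 and 5.75 on every array. S100a8, left out of that mean, was above the array median on none. Of the 8 epithelial markers, Krt18 was lower in males by a difference of -0.34 between knockouts and -0.28 between controls, and Krt8 by one of -0.21 between knockouts. Between knockout sexes, all 6 urothelium markers had a negative difference (median -0.22) and all 8 macrophage and leukocyte markers too (median -0.15), each list with 1 at an unadjusted p under 0.05 and none called. The mean of the urothelium markers ran from 9.66 to 10.48 in male and from 9.87 to 10.55 in female knockouts, and that of the macrophage and leukocyte markers from 6.19 to 6.34 and from 6.21 to 6.65. Between control sexes the medians were -0.02 and 0.02. Of 3 measured nerve and glia markers, Th was higher in males by 0.31 in knockouts and by 0.48 in controls. The part of all these markers in the member values was not tested. With the mesenchyme mean as a covariate, 13 members were called between knockout sexes and 12 between control sexes. The share of all genes called with this covariate is not given here.

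Male control 6 was the highest of the male controls for 10 of the 37 members and the lowest for 8. Its largest excess over the other male controls was in Mmp2, at 8.51 against 7.23 to 7.43. Reck, Adamts15 (7.15 against 6.26 to 6.60), Adamts9 (7.80 against 6.95 to 7.47) and Adamts12 (5.58 against 4.97 to 5.16) followed. The part of its mesenchyme, smooth muscle and endothelial signal in these values was not tested. Without this array Adamts9 remained called between male genotypes, as given above.

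**Figure D5:**
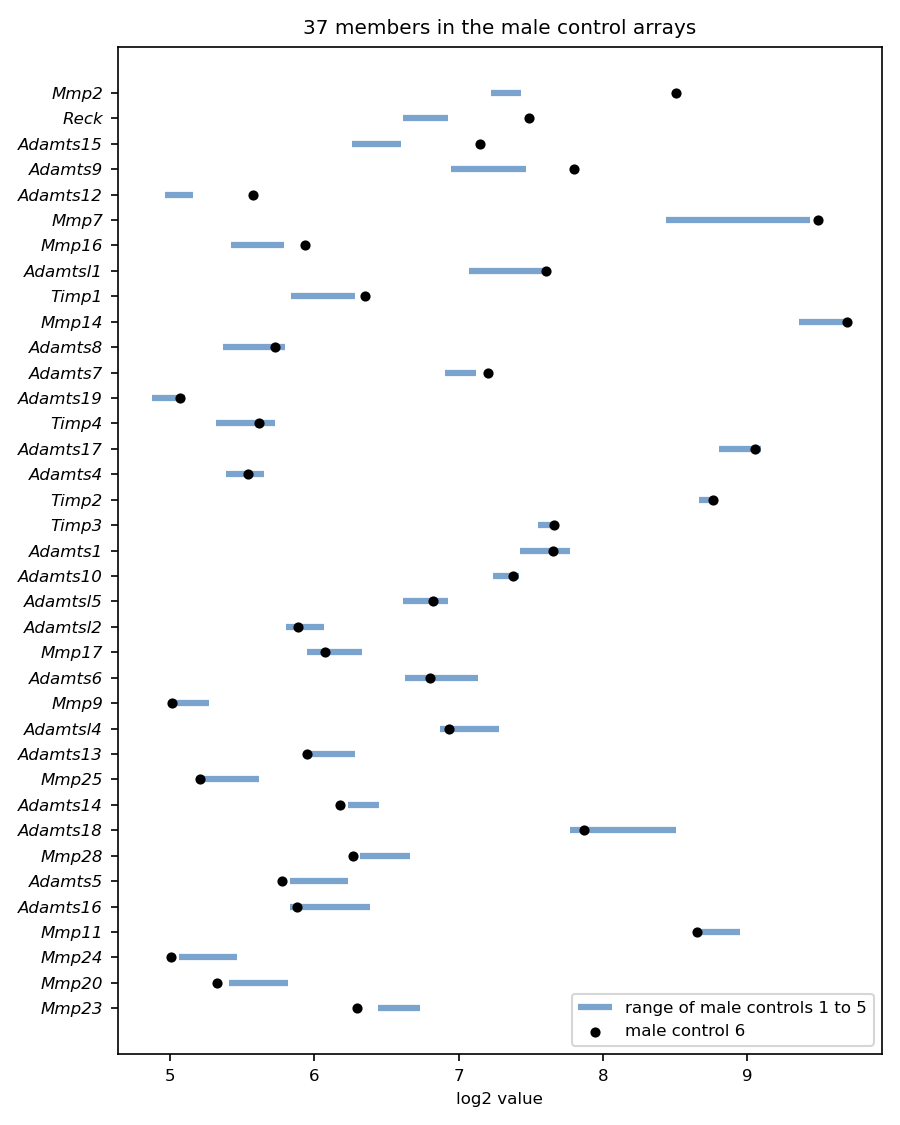
Log2 value (horizontal axis) of the 37 tested members in the male control arrays, as a point for male control 6 and a bar for the range of the other 5; genes are ordered by the difference between them. Mmp2, Reck, Adamts15, Adamts9 and Adamts12 stand above the range of the other male controls, Mmp2 by the most.

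The genes around the proteases were described from lists of substrates, activators and other inhibitors. Of 8 tested genes of proenzyme activation and secretion, 1 was lower in knockouts of either sex and none higher: Pcsk6, a proprotein convertase also known as PACE4. Over all genes 0.178% were called lower in male knockouts and 0.0315% in female knockouts. Pcsk6 had a mean of 6.57 in male knockouts and 6.89 in male controls (-0.32, adjusted p = 0.0152 in limma), and of 6.73 in female knockouts and 7.10 in female controls (-0.37, adjusted p = 0.0343). The groups did not overlap in either sex, as for 0.236% of all genes that were lower in male and 0.619% in female knockouts. Between the sexes, Pcsk5, another convertase, was higher in males by 0.32 in knockouts and by 0.48 in controls. Furin was lower in male than in female knockouts by a difference of -0.18, and Pcsk6 lower in male than in female controls by one of -0.21.

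No gene of the other 4 lists was called between genotypes in limma, in males or females, and 0 to 2 genes per list had an unadjusted p under 0.05. Of 12 tested genes of hyaluronan and of the proteoglycans that bind it, Hapln1, the link protein that joins them, was higher in males by 0.65 in knockouts and 0.61 in controls, and Acan was lower in male than in female controls (-0.24). Of 11 tested fibrillin microfibril genes, 3 were lower in male than in female knockouts and 2 lower in male than in female controls, where 3.52% and 3.67% of all genes were, with medians of -0.14 and -0.16 against -0.01 over all genes. Ltbp2, a microfibril protein, differed by -0.55 between knockouts and -0.67 between controls, and Mfap2 by -0.38 and -0.23. Ltbp3 differed by -0.25 between knockouts. Of 10 tested other metzincin proteases, Bmp1, which cleaves procollagen at its other end, was lower in male than in female knockouts (-0.17). Of 7 tested other protease inhibitors, Spock2, a testican, was lower in males, with differences of -0.44 in knockouts and -0.37 in controls, and Spock3 with one of -0.24 in knockouts.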

How the data were processed

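Total RNA of 22 samples of UGS epithelium was hybridized to Affymetrix whole-transcript arrays. Per the labels' protocols, trypsin and collagenase were used, mesenchyme was separated under a microscope, and bladder and urethral epithelium was removed. The authors deposited log2 values for 72688 probe sets. The scale was read from the values, and how background and arrays were normalized is not given in the sources used here. Values were used as deposited.

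Probe sets were named from the platform annotation. The probe set of highest mean was taken for each gene, after a filter that kept probe sets above their array's median (50th percentile) on at least 5 arrays. The fit was limma 3.58.1 in R 4.3.3, with 18 residual and 4.34 prior degrees of freedom, two-sided, over 6 comparisons, tested on simulated data. No batch, litter or scan date was in the labels. Members named are those called, and the 4 of smallest p in each comparison. The members, lists and tests were chosen with earlier results of these data known. Alternatives were other scalings, filters, probe set means, eBayes settings, subsets of arrays, weights, a mesenchyme covariate, a replicate block (added later for the sexes) and leaving out each array. Motifs were searched on both strands of RefSeq promoters of GRCm38.p6. Figures used matplotlib 3.10.9.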

Additional observations from a re-analysis of the deposited data

Results flagged for a closer look

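In 72 groups examined for the 18 members named by rule, 5 values lay far from the rest of their group by Dixon's test, where chance gives about 1 in 20. Adamts18 had 8.50 in male control 1, against 7.77 to 7.97 in the other male controls. Adamtsl1 had 7.00 in male knockout 4, against 7.50 to 7.76 in the other male knockouts, and Mmp11 had 8.95 in the same array, against 8.57 to 8.71. Timp4 had 5.50 in female knockout 1, against 5.30 to 5.33 in the other female knockouts. Mmp2 had 8.51 in male control 6, against 7.23 to 7.43 in the other male controls.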

How the results depend on the processing

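None of the 40 differences of members named by rule reversed its direction under the alternatives run. Over all 37 tested members signs did change. Between male genotypes 21 differences were positive as deposited, and 17 after quantile normalization or median centring. Adamts9 was called between male genotypes under all 22 alternatives, with differences from -0.87 to -0.70 and an adjusted p of at most 0.0298 in limma. With each array left out in turn, the count of members called was 1 between male genotypes, 0 between female genotypes, 1 averaged and 0 for the difference of differences, 10 to 12 between knockout sexes and 9 to 11 between control sexes. Other alternatives gave 9 to 14 between knockout sexes and 9 to 14 between control sexes, except that a filter at the 75th percentile left 17 members tested and 6 of them called between control sexes. Deviations from the group means correlated between -0.21 and 0.13 for same-numbered arrays of a sex. The labels give no litter, and low correlations cannot exclude a weak litter effect, so whether the numbers pair the samples is not known. With the replicate number as a block, 1, 0, 1 and 0 members were called in the genotype comparisons and the difference of differences. Between knockout sexes 12 were called and between control sexes 9, the sex blocks being chosen after seeing the data. The shares of all genes called between the sexes under these alternatives are not given here. Counts over all genes changed more: 20 genes between male genotypes with only the arrays compared, against 38, 72 averaged over the sexes with array weights, against 47, and between female genotypes 3 with only the arrays compared or with median centring and 11 with array weights, against 6. Signal over background limits the 13 dim members, none of which was called when tested without the filter. The smallest p among them was for Adamts3 averaged over the sexes. It differed by -0.13 (unadjusted p = 0.00957, adjusted p = 0.587 in limma).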
